A study of Mus musculus with 8 samples.

Results

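Chemokines are small secreted proteins that direct the movement of leukocytes, and their receptors are membrane proteins with which those cells sense them. The genes described here are the rows whose names are those of chemokine ligands (Ccl, Cxcl, Cx3cl and Xcl genes and Pf4) or of chemokine receptors (Ccr, Cxcr, Cx3cr and Xcr genes, the atypical receptors Ackr1 to Ackr4, and Ccrl2). They number 62 of the 55679 genes in the table, 39 ligands and 23 receptors, and they were chosen by name and not by value. RNA-seq was performed on left ventricles of male wild-type C57BL/6J mice, 4 infused with saline (control) and 4 infused with angiotensin II (ANG II, a peptide hormone and vasoconstrictor) at 1500 ng/kg/min. In both groups the infusion ran for 7 days through a pump under the skin, and the heart was flushed with saline before the ventricle was taken. The age of the mice was not given in the sources used here. The question was which of these genes differ between the ventricle under ANG II and the control ventricle.

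Conventional chemokine receptors signal through inhibitory G proteins and set a leukocyte moving toward the source of the ligand. Atypical receptors bind chemokines without that signal and take them up or hold them. In heart tissue, Ccr2 is best known as the receptor of recruited monocytes, Cx3cr1 as a receptor of monocytes and resident macrophages, and Cxcl12 as a ligand made by stromal and endothelial cells.

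Levels were deposited as FPKM, a fragment count divided by the length of the transcript and by the depth of the library, so that levels can be compared between genes per length. The libraries held 14455654 to 16564828 fragments, as read from the steps of the values. A gene was tested when its mean over all libraries was at least 0.1 FPKM, and a call required both an adjusted p-value under 0.05 and a log2 fold change above 0.5 or below -0.5. The test was limma on log2(FPKM + 1) over all 19364 genes that passed the filter, with Benjamini-Hochberg adjustment over all of them. On that scale, fold changes of low genes come out too small. Cardiomyocyte markers, which define the labelled tissue, summed to 35510 to 48300 FPKM across the libraries. The atrial marker sum ranged from 1.16 to 48.8 FPKM in control and from 52.5 to 230.5 FPKM in ANG II, and its part in the results was not tested. Nothing in the sources states that the libraries came from separate days or litters, so p-values measure the spread between these samples.

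Of the 62 genes, 33 reached a mean of 1 FPKM in at least 1 group, 14 lay between, and 15 were near 0 and were not tested. The ligands Ccl20, Ccl21b and Ccl27b and the receptor Cxcr1 were listed at 0 in all 8 libraries. With 3 fragments as the most that a count of 0 allows, these rows could still hold up to 0.196, 0.485, 0.459 and 0.151 FPKM per library, in that order, counting error only. Near 0 but not at 0 throughout were the ligands Ccl1, Cxcl3, Cxcl11, Cxcl15, Cxcl17 and Xcl1, with at most 5 fragments in any library. The receptors Ccr3, Ccr4, Ccr6, Ccr8 and Ccr9 were likewise near 0, with at most 11 fragments in any library. Ccr3, the receptor of eosinophils, had 1 fragment over the control libraries and 26 over the ANG II libraries, and Ccr8, a receptor of regulatory T cells, had 1 and 10. These genes are too thinly covered for a fold change to be given. Ccl21b and Ccl27b share 100% and 98.1% of their 50-base words with other genes, so that their reads could have been counted elsewhere.

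Chemokine ligands were higher in ANG II for 15 of 30 tested and lower for 0, against 14% of all genes tested that were called higher, 1.41% that were called lower and 15.4% in either direction. Receptors were called higher for 9 of 17 tested and lower for 0. By the adjusted p-value alone, 17 ligands and 10 receptors were higher and 1 receptor, Ackr3, was lower, against 28.4% and 4.91% of all genes (33.3% in all); Cxcr2 is among these 10 receptors. The median log2 fold change was 0.65 over the tested ligands, 0.55 over the tested receptors and 0.15 over all genes tested. Scaling the libraries by the median of ratios brought the median of all genes to 0.00. Under that scaling 11 ligands and 8 receptors were called higher, 1 receptor, Ackr3, was called lower, and the genes called overall split into 1671 higher and 804 lower in place of 2708 and 273. Under quantile normalization 11 ligands and 7 receptors were called higher and none lower, with 1413 and 986 over all genes. Cxcl13, Cxcr2 and Cxcr5 passed the filter only through their ANG II libraries and Ccl26 only through its control libraries. None of these was called, and counts and medians which hold them support nothing. In whole tissue, a change in the number of cells of a type and a change in RNA per cell cannot be told apart.

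**Figure D1:**
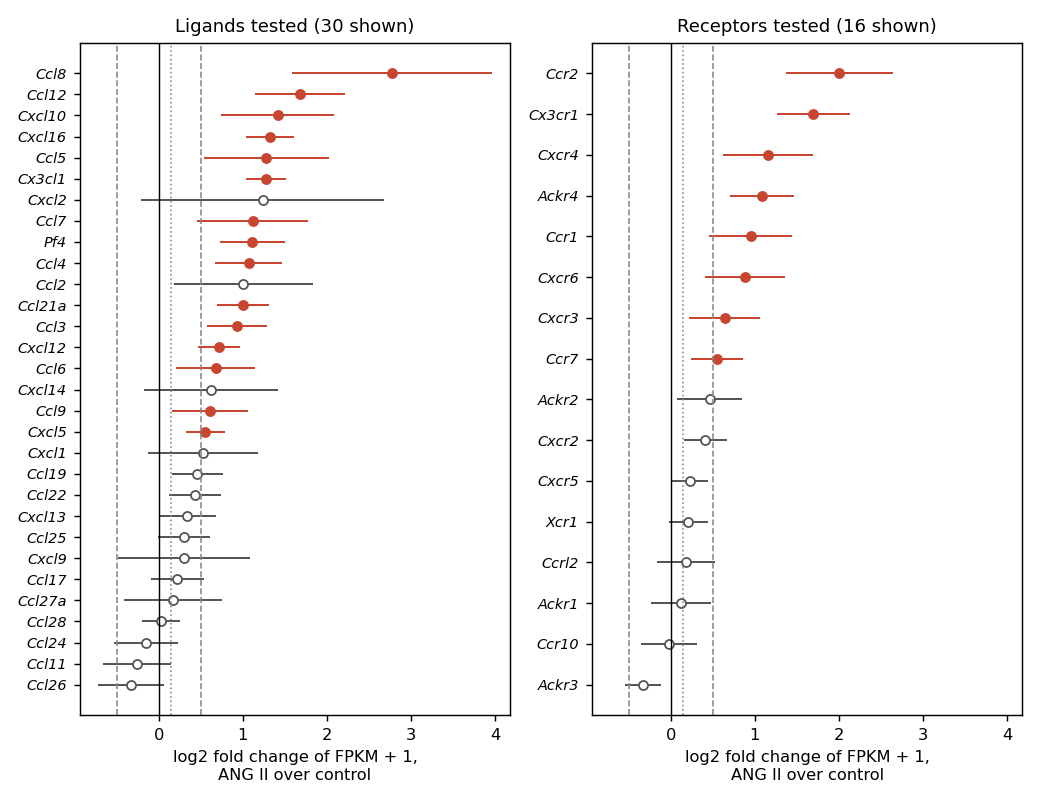
Log2 fold change of FPKM + 1, ANG II over control, for the 30 ligands and 16 of the receptors tested, with 95% intervals from limma (n = 4 per group). Filled red points were called higher; the dashed lines mark the threshold of 0.5 in each direction and the dotted line the median of all genes tested, 0.15. Ccl8 at 2.78 and Ccr2 at 2.01 head the panels, and Ackr3 at -0.33 is the lowest receptor.

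Summed over the 39 ligands, the level was 170.0 to 237.9 FPKM in control and 332.6 to 461.6 FPKM in ANG II, so the groups did not overlap. The sum over the 23 receptors was 89.8 to 111.2 FPKM in control and 121.3 to 138.8 FPKM in ANG II. A single gene held much of each sum. Cxcl12 made up 31.0 to 35.9% of the ligand sum in control and 23.9 to 31.5% in ANG II. Ackr3 made up 68.3 to 73.4% of the receptor sum in control and 38.8 to 46.1% in ANG II, and these ranges did not meet. After Cxcl12, the ligands with the highest control means were Ccl6 at 27.6 ± 6.28, Pf4 at 19.5 ± 3.26, Ccl21a at 12.7 ± 2.05, Cx3cl1 at 11.8 ± 1.63 and Ccl9 at 10.7 ± 2.29 FPKM (SD, n = 4). The last 3 neighbours in that order lie within each other's spread.

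**Figure D2:**
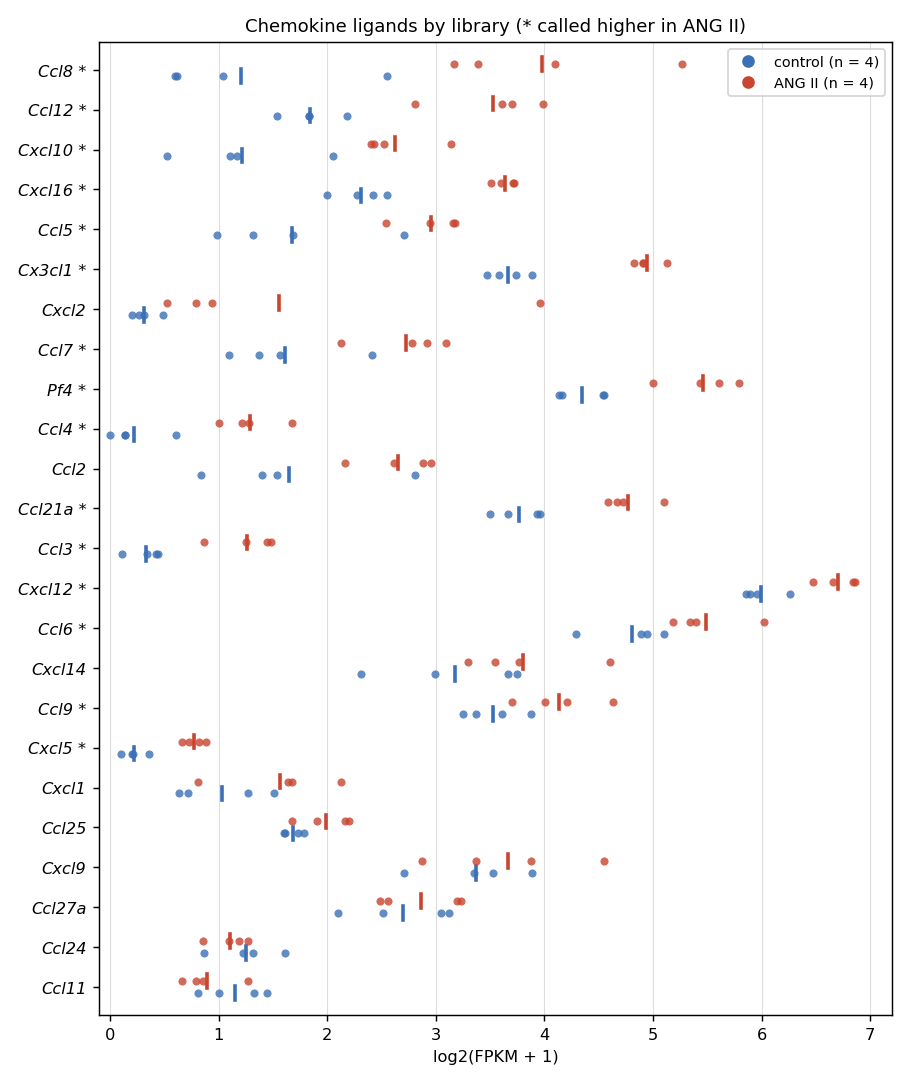
Level of each ligand that was called or reached 1 FPKM, as log2(FPKM + 1), in the 4 control libraries (blue) and the 4 ANG II libraries (red), ordered by log2 fold change. Points are libraries, vertical bars group means, and asterisks mark the 15 ligands called higher. Ccl2, Cxcl2 and Cxcl14 lie among them without a call; of these 3, all but Cxcl2 have overlapping groups.

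The ligand and the receptor with the largest fold changes on the log2(FPKM + 1) scale, Ccl8 and Ccr2, belong to the monocyte-attracting group. Ccr2 stood at 3.85, 1.44, 2.43 and 0.919 FPKM in control 1 to 4 and at 11.7, 9.80, 15.3 and 8.04 FPKM in ANG II 1 to 4. Every ANG II library lay above every control library, with means of 2.16 ± 1.29 and 11.2 ± 3.12 FPKM (SD, n = 4). The log2 fold change was 2.01 (limma, SE 0.280, adjusted p = 0.000532) on the log2(FPKM + 1) scale, and 2.53 on recovered fragments, where Cxcr2, Cxcr3 and Cxcr6 were higher. Ccl8 (also called MCP-2), a ligand of monocytes and T cells, stood at 4.87, 0.536, 1.06 and 0.512 FPKM in control and at 16.1, 9.45, 37.5 and 7.96 FPKM in ANG II. The groups did not overlap, though control 1 was far above the other control libraries and ANG II 3 above the other ANG II libraries. Its log2 fold change was 2.78 (limma, SE 0.525, adjusted p = 0.00291), the highest of the ligands, and 3.23 without control 1.

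Ccl12 (MCP-5), a mouse ligand of Ccr2, was at 3.53, 2.56, 1.90 and 2.57 FPKM in control and at 12.1, 11.2, 14.8 and 6.03 FPKM in ANG II. No control library reached the lowest ANG II library, and the log2 fold change was 1.68 (limma, SE 0.234, adjusted p = 0.000522). Ccl7 (MCP-3) was at 4.32, 1.97, 1.58 and 1.14 FPKM in control and at 6.59, 5.87, 7.51 and 3.36 FPKM in ANG II. Here control 1 lay above ANG II 4, and the log2 fold change of 1.12 (limma, SE 0.289, adjusted p = 0.0143) lost its call under quantile normalization. Ccl2 (MCP-1), the best known ligand of Ccr2, was at 6.01, 0.789, 1.90 and 1.64 FPKM in control and at 6.77, 5.12, 6.37 and 3.47 FPKM in ANG II. Control 1 lay within the ANG II range, and Ccl2 was not called, with a log2 fold change of 1.01 (95% interval 0.19 to 1.82, limma adjusted p = 0.0592). Without control 1 it was 1.39 with a limma adjusted p of 0.00233, and Ccl2 was also called with the filter at 1 FPKM, with the replicate block and on recovered fragments.

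Ccl3, Ccl4, Ccl5, Ccl6, Ccl9 and the receptor Ccr1 were called higher. Ccr1, a receptor of monocytes and neutrophils, was at 0.830, 1.04, 0.426 and 0.877 FPKM in control and at 2.75, 2.97, 3.34 and 1.17 FPKM in ANG II. ANG II 4 was the lowest of its group for Ccr1 but still above the controls, and the log2 fold change was 0.95 (limma, SE 0.216, adjusted p = 0.00750). Ccl3 (MIP-1 alpha), a ligand of Ccr1, was at 0.361, 0.268, 0.0788 and 0.341 FPKM in control and at 1.38, 1.80, 1.73 and 0.817 FPKM in ANG II. Ccl4 (MIP-1 beta), a ligand of macrophages and T cells, was at 0.524, 0.104, 0 and 0.0991 FPKM in control and at 2.20, 1.43, 1.00 and 1.33 FPKM in ANG II. Neither overlapped, and the log2 fold changes were 0.93 and 1.07 (limma, SE 0.153 and 0.174, adjusted p = 0.00130 and 0.00121). Both rest on few fragments, 12 over the control libraries for Ccl3 and 7 for Ccl4, against 68 and 61 over the ANG II libraries.

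Ccl5 (RANTES), a product of T cells and natural killer (NK) cells, was at 5.53, 1.48, 2.21 and 0.981 FPKM in control and at 7.92, 4.81, 6.72 and 8.03 FPKM in ANG II. Control 1 lay above ANG II 2, and the log2 fold change was 1.28 (limma, SE 0.325, adjusted p = 0.0131). Control 1 also had the highest control sums of T cell markers (13.3 FPKM against 3.25 to 6.34 FPKM) and NK cell markers (5.01 FPKM against 0.515 to 2.26 FPKM), whose part in the Ccl5 values was not tested. Ccl6 and Ccl9, ligands of Ccr1 made by myeloid cells in the mouse, were abundant in both groups. Ccl6 was at 28.7, 18.6, 29.7 and 33.3 FPKM in control and at 41.1, 39.4, 64.0 and 35.5 FPKM in ANG II, and Ccl9 was at 9.35, 8.49, 11.2 and 13.7 FPKM and at 15.04, 12.1, 23.8 and 17.4 FPKM. Their log2 fold changes of 0.68 and 0.61 (limma adjusted p = 0.0285 and 0.0359) were called, but the calls were lost with no filter, under either other scaling and without control 2, ANG II 1 or ANG II 3. That of Ccl9 was also lost without control 1, control 3 or ANG II 4.

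Cx3cl1 (fractalkine), a ligand that endothelial cells and other tissue cells hold on their membrane, had the lowest adjusted p-value of the 62 genes. It was at 13.8, 10.1, 12.4 and 10.9 FPKM in control and at 34.0, 29.0, 29.0 and 27.3 FPKM in ANG II. The spread within each group was small beside the difference of 1.27 on the log2 scale (limma, SE 0.101, adjusted p = 2.42e-05). Its receptor Cx3cr1 was at 2.51, 2.36, 1.49 and 0.980 FPKM in control and at 7.79, 8.81, 9.21 and 6.31 FPKM in ANG II, a log2 fold change of 1.70 (limma, SE 0.191, adjusted p = 0.000161) with no overlap. Cxcl16, a membrane-held ligand of macrophages and dendritic cells, was at 4.87, 4.34, 3.83 and 3.00 FPKM in control and at 12.1, 10.4, 11.1 and 12.2 FPKM in ANG II. The groups lay well apart, at a log2 fold change of 1.33 (limma, SE 0.121, adjusted p = 5.22e-05). Of the Cxcl16 exon sequence, 18.3% is overlapped by Zmynd15 on the opposite strand, which was at 1.97 to 4.00 FPKM in control and 5.59 to 9.93 FPKM in ANG II. The use of strand in counting was not stated, so reads in the overlap cannot be told apart. Cxcr6, the receptor of Cxcl16 on T cells and NK T cells, was at 1.06, 0.108, 0.508 and 0.0344 FPKM in control and at 1.49, 1.22, 1.91 and 1.51 FPKM in ANG II. It did not overlap, with control 1 again the highest control, and its log2 fold change was 0.88 (limma, SE 0.208, adjusted p = 0.00920).

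**Figure D3:**
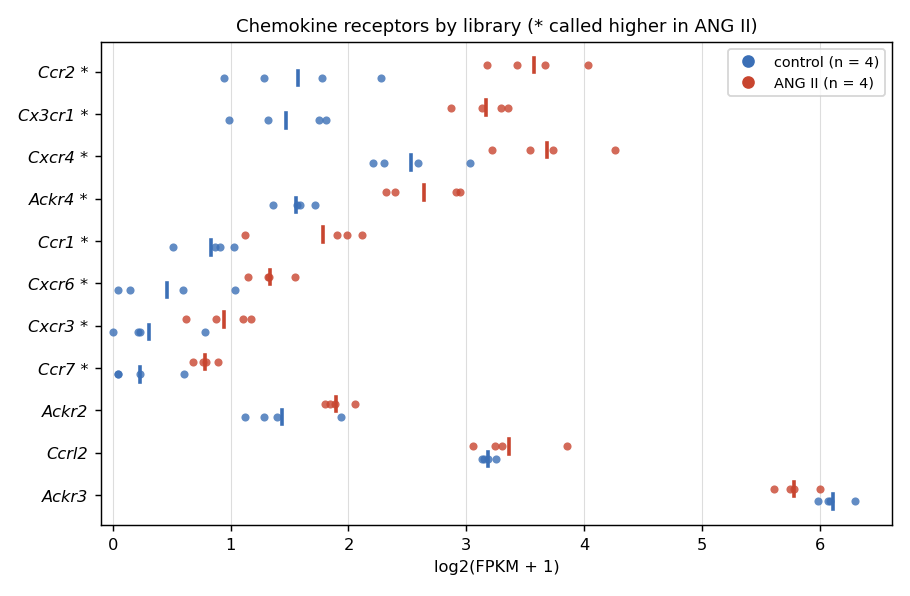
Level of 11 receptors that were called or reached 1 FPKM, as log2(FPKM + 1), in the 4 control libraries (blue) and the 4 ANG II libraries (red), ordered by log2 fold change. Vertical bars are group means and asterisks mark those called higher. Ccr2 and Cx3cr1 lie at the top with both groups apart, and Ackr3 at the bottom is the only one of these whose ANG II mean is below its control mean.

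Cxcl12 (SDF-1), which retains and recruits cells bearing Cxcr4, was the most abundant ligand in every library. It was at 75.5, 61.0, 58.5 and 56.9 FPKM in control and at 87.7, 113.7, 115.3 and 99.7 FPKM in ANG II. No control reached the ANG II libraries, and the log2 fold change was 0.72 (limma, SE 0.108, adjusted p = 0.000816). Under median-of-ratios scaling it was 0.49, just under the threshold. Cxcr4 was at 5.01, 7.18, 3.92 and 3.62 FPKM in control and at 12.3, 8.29, 10.7 and 18.1 FPKM in ANG II, a log2 fold change of 1.16 (limma, SE 0.234, adjusted p = 0.00411) without overlap. Ackr3 (also called Cxcr7), the atypical receptor that removes Cxcl12, went the other way. It was at 77.8, 62.2, 67.0 and 65.9 FPKM in control and at 47.8, 52.6, 53.9 and 62.8 FPKM in ANG II, where ANG II 4 lay above control 2. Its log2 fold change of -0.33 (95% interval -0.53 to -0.12, limma adjusted p = 0.0203) met the adjusted p-value threshold and missed that of the fold change. It was called lower at -0.55 when the libraries were scaled by the median of ratios.

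Lymphoid-tissue chemokines were represented mainly by Ccl21a, a product of lymphatic endothelium that guides dendritic cells and T cells through Ccr7. Ccl21a was at 14.2, 11.7, 10.3 and 14.6 FPKM in control and at 25.5, 24.4, 33.2 and 23.0 FPKM in ANG II, with no overlap and a log2 fold change of 1.01 (limma, SE 0.133, adjusted p = 0.000385). It shares 71.6% of its 50-base words with a near-identical gene (Gm21541), and its copies were listed at 0, so how the reads were divided among the copies is uncertain. The lymphatic endothelial marker sum was 29.6 to 34.0 FPKM in control and 29.7 to 36.3 FPKM in ANG II, with 1 of 5 markers (Pdpn) called higher, against 14% of all genes tested. Prox1, which holds the largest part of that sum, had group means of 19.4 FPKM (control) and 14.5 FPKM (ANG II; log2 fold change -0.40, limma adjusted p = 0.0206), while the group means of the other 4 (Pdpn, Flt4, Reln and Mmrn1) were higher in ANG II; their part in the Ccl21a values was not tested. Ccr7 was at 0.175, 0.0346, 0.519 and 0.0331 FPKM in control and at 0.734, 0.602, 0.702 and 0.854 FPKM in ANG II, a log2 fold change of 0.55 (limma, SE 0.134, adjusted p = 0.0107). Its groups did not overlap, but the call was lost under both other scalings and without control 2 or control 4, where the fold change fell just under the threshold. Ackr4, the atypical receptor that takes up Ccl19, Ccl21 and Ccl25, was at 2.01, 2.29, 1.56 and 1.95 FPKM in control and at 6.71, 6.52, 4.25 and 3.99 FPKM in ANG II. The log2 fold change was 1.09 (limma, SE 0.164, adjusted p = 0.000828), and 8.90% of its exon sequence is overlapped by another gene (Acad11) on the opposite strand.

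Among the interferon-inducible ligands of Cxcr3, Cxcl10 was called and Cxcl9 was not. Cxcl10 was at 3.14, 0.437, 1.25 and 1.15 FPKM in control and at 7.83, 4.40, 4.74 and 4.29 FPKM in ANG II. All ANG II libraries were above all controls, at a log2 fold change of 1.41 (limma, SE 0.295, adjusted p = 0.00488). Cxcl9 was more abundant, at 13.8, 5.55, 10.5 and 9.18 FPKM in control and at 22.4, 6.35, 13.7 and 9.33 FPKM in ANG II. The Cxcl9 groups overlapped widely, and the log2 fold change was 0.30 (95% interval -0.47 to 1.07, limma adjusted p = 0.545). The difference between the changes of Cxcl10 and Cxcl9 was not tested. Their receptor Cxcr3, of activated T cells, was at 0.719, 0.158, 0.174 and 0 FPKM in control and at 0.838, 0.543, 1.26 and 1.16 FPKM in ANG II, with control 1 above ANG II 2. Its call, at a log2 fold change of 0.64 (limma, SE 0.183, adjusted p = 0.0223), was lost in 6 of 14 alternatives, among them leaving out control 2, control 3, control 4, ANG II 3 or ANG II 4.

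Among the genes chosen by name, the neutrophil-attracting ligands of Cxcr2 were low. Cxcl1 (KC) was at 1.42, 1.84, 0.556 and 0.648 FPKM in control and at 2.20, 0.755, 2.11 and 3.37 FPKM in ANG II, and was not called (log2 fold change 0.53, 95% interval -0.11 to 1.17, limma adjusted p = 0.189; called without ANG II 2, at 0.78). Cxcl2 (MIP-2) was at 0.153, 0.202, 0.400 and 0.241 FPKM in control and at 0.729, 0.924, 0.438 and 14.5 FPKM in ANG II. Every ANG II library was above every control for Cxcl2, but ANG II 4 alone carried most of the mean, and the log2 fold change of 1.24 (limma, SE 0.641, adjusted p = 0.170) was 0.44 without it, with a limma adjusted p of 0.0337. Cxcl5 (LIX) was at 0.282, 0.159, 0.0702 and 0.152 FPKM in control and at 0.844, 0.657, 0.770 and 0.583 FPKM in ANG II, and was called at a log2 fold change of 0.56 (limma, SE 0.0971, adjusted p = 0.00187). The Cxcl5 call was lost under both other scalings, at 0.49 and 0.43. Cxcr2, the receptor of neutrophils, had 9 fragments over the control libraries and 68 over the ANG II libraries. The neutrophil marker sum was 2.88 to 6.77 FPKM in control and 8.76 to 22.0 FPKM in ANG II, with 4 of 6 tested markers called higher (against 14% of all genes tested), Ltf and Mmp8 tested only because of their ANG II libraries, and Ly6g, Camp, Ngp and Mpo near 0; its part in these values was not tested.

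Promoter sequences help to set these members side by side. They were taken from RefSeq (GRCm38.p6, from 250 bases before to 50 after the start of the gene), where 47 of the 62 genes were matched. The letters of the kappa B motif, bound by NF-kappa B factors, were searched as GGGA, any 2 bases and TTCC on both strands and were found in 6 of the 47 (12.8%) and in 1.63% of 27025 genes. The 6 were Cxcl1, Cxcl2, Cxcl3, Cxcl10, Ccl1 and Ccr3, of which Cxcl3, Ccl1 and Ccr3 were near 0 and not tested and 1 of the other 3, Cxcl10, was called. Cxcl1, Cxcl2 and Cxcl3 lie in 1 cluster on chromosome 5 and hold the same kappa B letters, so the 6 may not be separate cases. Cxcl10 is also 1 of 3 members (6.38%, against 3.99% of all genes) with the interferon response element core (GAAA, any 2 bases and GAAA), and 1 of 8 (17%, against 8.97%) with the AP-1 motif TGANTCA. The STAT motif TTCNNNGAA was in 3 members (6.38%, against 9.55%), the PU.1 motif GAGGAAGT in Pf4 and Cxcr3 (4.26%, against 3.69%), and the cyclic AMP response element TGACGTCA in 0 (against 2.03%). Shown are Cxcl1 and Cxcl2, which hold the same kappa B letters and were not called, Cxcl10, which holds 3 of the motifs, and Ccl8, which had the largest change and holds none of them. Capitals mark the motif letters; in Cxcl1 and Cxcl2 they cover overlapping matches on the 2 strands that begin at positions -71 and -70 and at -97 and -96 from the start. In Cxcl10 the capitals are, in order, the interferon element at -213, kappa B at -159 and AP-1 at -74. Cxcl1 lies at chr5:90890995-90891294 (plus strand), Cxcl2 at chr5:90903649-90903948 (plus), Cxcl10 at chr5:92348840-92349139 (minus) and Ccl8 at chr11:82114935-82115234 (plus). A match is a run of letters and no evidence of binding.
Cxcl1: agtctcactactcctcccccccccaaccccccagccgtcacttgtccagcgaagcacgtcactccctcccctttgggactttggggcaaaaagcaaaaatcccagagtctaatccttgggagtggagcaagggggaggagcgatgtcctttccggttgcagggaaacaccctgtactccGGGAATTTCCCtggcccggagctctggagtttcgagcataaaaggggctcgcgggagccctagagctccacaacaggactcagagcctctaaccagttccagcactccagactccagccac
Cxcl2: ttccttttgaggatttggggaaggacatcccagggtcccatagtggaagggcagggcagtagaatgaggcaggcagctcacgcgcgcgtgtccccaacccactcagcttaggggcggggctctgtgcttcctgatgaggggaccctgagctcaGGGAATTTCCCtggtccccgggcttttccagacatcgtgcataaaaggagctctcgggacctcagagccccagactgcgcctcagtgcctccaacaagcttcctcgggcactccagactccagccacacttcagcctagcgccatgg
Cxcl10: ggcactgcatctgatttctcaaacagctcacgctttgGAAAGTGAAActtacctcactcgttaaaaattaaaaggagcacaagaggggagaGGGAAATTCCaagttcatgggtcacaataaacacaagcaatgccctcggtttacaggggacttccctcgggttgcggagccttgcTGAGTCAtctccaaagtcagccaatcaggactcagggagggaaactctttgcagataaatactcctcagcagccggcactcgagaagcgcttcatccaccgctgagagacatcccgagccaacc
Ccl8: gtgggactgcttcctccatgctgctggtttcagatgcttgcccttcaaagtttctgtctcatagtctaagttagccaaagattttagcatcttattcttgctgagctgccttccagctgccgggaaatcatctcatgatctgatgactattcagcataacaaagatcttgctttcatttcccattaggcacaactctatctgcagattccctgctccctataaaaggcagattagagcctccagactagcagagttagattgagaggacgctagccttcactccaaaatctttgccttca

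Pf4 (platelet factor 4, Cxcl4), stored in platelet granules and also made by macrophages, was at 22.4, 22.2, 16.5 and 16.9 FPKM in control and at 42.2, 54.5, 47.9 and 30.9 FPKM in ANG II. The groups did not overlap, and the log2 fold change was 1.11 (limma, SE 0.168, adjusted p = 0.000799). Of 7 platelet markers tested, 0 were called, against 15.4% of all genes tested in either direction, and Gp1bb was at 0 and Gp6 near 0. The platelet marker sum overlapped between the groups, at 3.31 to 9.39 FPKM in control and 5.99 to 38.6 FPKM in ANG II. The high end of the latter was ANG II 2, which also had the highest Pf4 value. Cxcl14, a ligand of epithelial and stromal cells whose receptor is not settled, was at 3.95 to 12.4 FPKM in control and 8.83 to 23.3 FPKM in ANG II (log2 fold change 0.62, 95% interval -0.16 to 1.41, limma adjusted p = 0.204).

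The eotaxins Ccl11, Ccl24 and Ccl26, which attract eosinophils, were not called. Ccl11 (eotaxin) was at 0.760 to 1.73 FPKM in control and 0.580 to 1.41 FPKM in ANG II, a log2 fold change of -0.25 (95% interval -0.65 to 0.14, limma adjusted p = 0.304). Ccl24 (eotaxin-2) was at 0.820 to 2.07 FPKM in control and 0.809 to 1.42 FPKM in ANG II, at -0.15 (95% interval -0.52 to 0.22, limma adjusted p = 0.520). Both groups overlapped in each gene. Ccl26 had 5 fragments over the control libraries and was listed at 0 in ANG II, where its short transcript could still hold up to 0.691 FPKM per library. Ccl25, a ligand of Ccr9, was at 2.04 to 2.45 FPKM in control and 2.19 to 3.60 FPKM in ANG II (log2 fold change 0.30, limma adjusted p = 0.112; -0.01 under quantile normalization). Ccl27a, a ligand of Ccr10, was at 3.30 to 7.70 FPKM in control and 4.59 to 8.40 FPKM in ANG II (log2 fold change 0.17, limma adjusted p = 0.647; -0.02 under median-of-ratios scaling). It shares 45.0% of its 50-base words with copies. The remaining ligands between 0.1 and 1 FPKM, Ccl17, Ccl19, Ccl22, Ccl28 and Cxcl13, were not called.

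Of the 5 atypical receptors, 1 (Ackr4) was called, a share near the 14% of all genes tested. Ackr2, which clears inflammatory CC chemokines, was at 1.44, 1.63, 1.18 and 2.83 FPKM in control and at 2.70, 3.16, 2.59 and 2.49 FPKM in ANG II. Control 4 lay within the ANG II range, the log2 fold change was 0.46 (95% interval 0.08 to 0.84, limma adjusted p = 0.0606), and without control 4 it was 0.63 and was called. Ccrl2, which binds chemerin, was at 7.76 to 8.54 FPKM in control and 7.31 to 13.4 FPKM in ANG II, with ANG II 4 alone above 8.88 FPKM (log2 fold change 0.18, 95% interval -0.15 to 0.52, limma adjusted p = 0.386; -0.02 under median-of-ratios scaling). Ackr1 and the conventional receptors Ccr10, Cxcr2, Cxcr5 and Xcr1 lay between 0.1 and 1 FPKM and were not called.

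The fold change of low genes depended on the scale. On fragments recovered from the FPKM steps and fitted with voom, a limma method for counts, 19 ligands and 12 receptors were called higher and 0 lower, against 18.9% of the genes tested that were called higher and 21% in either direction. All 24 members called on the FPKM scale were among these 31. The 7 others were Ccl2, Ccl19, Ccl22, Cxcl13, Cxcr2, Cxcr5 and Ackr2, of which Cxcl13, Cxcr2 and Cxcr5 were tested only because of their ANG II libraries, so that their calls support nothing. On this scale Cxcr6 had a log2 fold change of 2.63 (SE 0.613) in place of 0.88, and Ccl4 of 3.27 (SE 0.642) in place of 1.07. The median was 1.34 for ligands, 1.65 for receptors and 0.23 for all genes tested. The ligand median holds Ccl26 and Cxcl13 and the receptor median holds Cxcr2 and Cxcr5. Each of these passed the filter through a single group, so the medians support nothing.

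**Figure D4:**
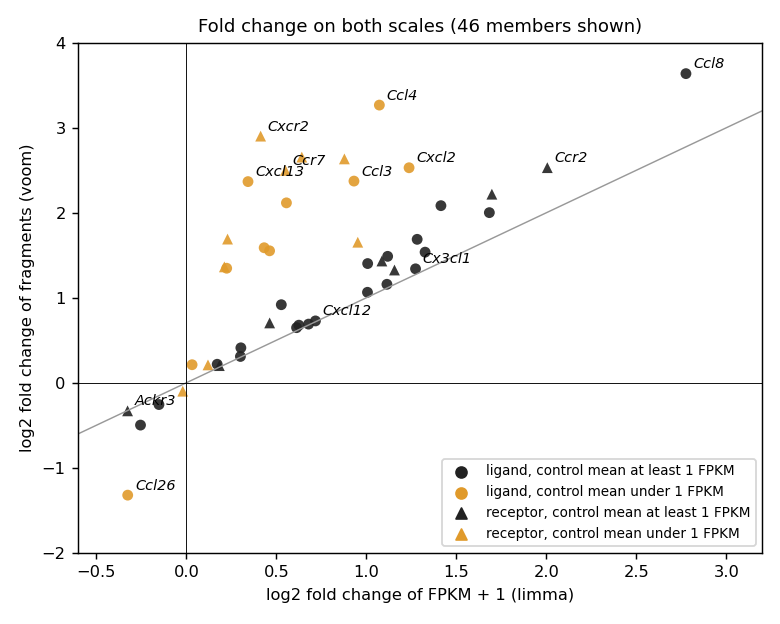
Log2 fold change on the scale of log2(FPKM + 1) against that on recovered fragments (voom) for 46 of the genes tested; the grey line marks equality. Genes with a control mean of at least 1 FPKM (black) lie nearer the line for the most part, though Ccl8 is at 2.78 and 3.64, and those under 1 FPKM (orange), such as Ccl3 at 0.93 and 2.37 and Ccl4 at 1.07 and 3.27, lie mostly far above it. Circles are ligands and triangles receptors.

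Control 1 was the highest control library for 18 of 30 tested ligands (60%) and 6 of 17 tested receptors (35.3%), against 33.9% of all genes tested. ANG II 3 was the highest ANG II library for 12 ligands (40%) and 6 receptors (35.3%), against 25%, and ANG II 4 for 6 receptors too. Without control 1, 16 ligands and 9 receptors were called higher, and without ANG II 3, 13 and 8. Over all genes, leaving out each library in turn gave 2763 to 3109 called in either direction, against 2981 with every library kept. Groups did not overlap, with ANG II higher, for 13 tested ligands and 10 tested receptors, against 28.7% of all genes tested (5.06% with ANG II lower, against 0 members), and 20 of the 24 called members were among them; the 10 receptors include Cxcr2 and Cxcr5. The 4 called members whose groups overlapped were Ccl5, Ccl7, Ccl9 and Cxcr3.

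Of 12 macrophage markers, 10 were called higher, against 14% of all genes tested. That 14% is the share called higher to set beside each list that follows. On the log2(FPKM + 1) scale Ms4a7, Cd68 and C1qb changed by most. The sum of the 12 markers was 204.4 to 249.1 FPKM in control and 477.3 to 638.5 FPKM in ANG II. All 5 monocyte markers tested were called higher (sums of 25.2 to 32.2 and 55.2 to 81.7 FPKM), with Fcnb at 0; of these, Chil3 was tested only because of its ANG II libraries. Among T cell markers 5 of 12 were called higher (3.25 to 13.3 and 11.7 to 22.1 FPKM), and among NK cell markers 1 of 6, Nkg7. Called higher were also 1 of 8 B cell markers (Ighm), 2 of 6 dendritic cell markers (Cd209a and Flt3, the latter tested only because of its ANG II libraries) and 0 of 4 mast cell markers. Erythroid markers were higher for 5 of 5, at 96.8 to 486.7 FPKM in control, where control 1 was the highest, and 580.7 to 2083 FPKM in ANG II. Fibroblast markers were called higher for 7 of 7, endothelial markers for 2 of 9, smooth muscle and pericyte markers for 2 of 7 and mesothelial markers for 0 of 4, and 2 of 8 cardiomyocyte markers (Tnni3 and Myh6) were called lower, against 1.41% of all genes tested. Ncr1 and Eomes (NK cell), H2-Oa (dendritic cell), Treml1 (platelet) and Tagln (smooth muscle) were likewise tested only because of their ANG II libraries and were not called. The marker lists were drawn up with earlier results of these data known, so these shares are descriptive. The part of these cell types in the chemokine results was not tested.

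**Figure D5:**
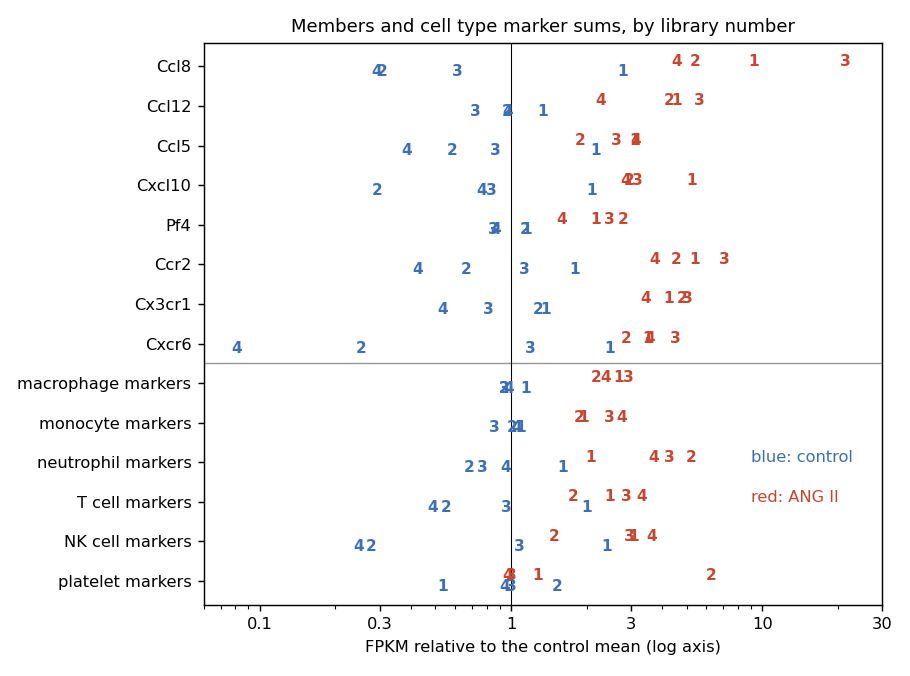
Level relative to the mean of the 4 control libraries, on a log axis, for 8 called members (above the line) and for the summed levels of 6 marker lists (below it); each digit is a library, blue for control and red for ANG II. Control 1 is the highest control for all 8 members drawn, which were chosen after their values were seen, and for 5 of the 6 marker sums, all but platelets, and the platelet sum of ANG II 2 stands apart at 6.24 times the control mean.

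Genes downstream of chemokine receptors, from a list of 40 that covers G proteins, kinases, arrestins and guanine exchange factors, were called higher for 22 and lower for 0, against 14% of all genes tested that were called higher. Pik3r5, a subunit of the lipid kinase that G protein beta-gamma activates, changed by 1.495 (1.06 to 4.78 FPKM as group means), Vav1, an exchange factor of leukocytes, by 1.47 (1.53 to 6.07 FPKM) and Fgr, a Src family kinase of myeloid cells, by 1.43 (0.172 to 2.16 FPKM), all on the log2 scale. Of 19 other chemoattractants and their receptors, 10 were called higher and 0 lower, against the same 14%. On the log2(FPKM + 1) scale these were led by the complement receptors C3ar1 at 1.60 and C5ar1 at 1.39. Csf1r, the receptor of macrophage colony-stimulating factor, came next on that scale at 1.18. Both lists were drawn up with earlier results of these data known, so their shares called are descriptive.

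Many of these genes lie in clusters on the chromosomes, given here in GRCm38 from GENCODE M21. In the cluster of MIP-type ligands at chr11:83525778-83664683, all 5 genes (Ccl5, Ccl9, Ccl6, Ccl3 and Ccl4) were called (Ccl6 and Ccl9 not under every alternative), against 14% of all genes tested that were called higher. In the nearby cluster of MCP-type ligands at chr11:82035571-82305690, 3 of 5 tested genes were called (Ccl7, Ccl12 and Ccl8), while Ccl2 and Ccl11 were not and Ccl1 was near 0. At chr5:90759360-90905938, Pf4 and Cxcl5 were called and Cxcl1 and Cxcl2 were not, with log2 fold changes between 0.53 and 1.24. At chr5:92321347-92365485 lie Cxcl10, which was called, Cxcl9, which was not, and Cxcl11, which was near 0.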

How the data were processed

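The authors deposited 1 table of FPKM values with a column for each of the 8 libraries, and every column was used. The submitters' processing notes name Bowtie2, HISAT and RSEM; the genome build, the annotation and the use of strand are not given in the sources used here. Samples were grouped by their treatment labels. Messenger RNA had been enriched on oligo(dT) beads.

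The deposited FPKM values were analysed as log2(FPKM + 1) with limma 3.58.1 in R 4.3.3 (lmFit, eBayes with a variance trend), with two-sided tests, all 8 libraries and no covariate. The thresholds were those that the study names, on a base-2 scale. The pseudocount of 1 and the filter at a mean of 0.1 FPKM were chosen here. On simulated data with 200 of 19076 genes changed 3-fold, limma recovered 125, among them 112 of the 123 with at least 1 FPKM, and called 7 unchanged genes. Every simulated gene had a dispersion of 0.05, with as many raised as lowered. The recovery need not hold for genes that vary more between libraries, such as Ccl8.

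FPKM multiplied by the mean GENCODE M21 transcript length gave whole multiples of a step that was fixed within each library. Of values under 60 fragments, 97.4 to 97.7% were whole within 0.02. No 2 libraries of a group were alike within sampling noise (chi-square of at least 8.03 per gene). Mitochondrially encoded genes held 26.3 to 27.0% of fragments in control and 19.2 to 21.8% in ANG II. The floor of 3 fragments and all counts cover counting error only.

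Members were set by a rule on gene names. That rule and the marker and pathway lists were drawn up with earlier results of these data known, so the shares called are descriptive. Named with values were members that were called or reached 1 FPKM in a group, and up to 3 called genes of each list. A gene that this rule picks is not reported here singly or drawn, and counts, medians and sums keep it. Uncertain rows were found from shared 50-base words and exon overlaps in GENCODE M21 (GRCm38). Python 3.11.15, pandas 2.3.3, numpy 2.4.6, scipy 1.17.1 and matplotlib 3.10.9 were used. Alternatives changed the pseudocount, filter, scaling, threshold, test, replicate block or the libraries included.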

Additional observations from a re-analysis of the deposited data

Results flagged for a closer look

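In 3 groups of 4 libraries, 1 library lay further from the other 3 than Dixon's test allows at the 95% level. This was tested in 72 groups (36 named members in each of 2 groups), and chance flags about 1 in 20. Ccl8 was at 4.87 FPKM in control 1 and at 0.512 to 1.06 FPKM in the other control libraries; its log2 fold change was 2.78 with control 1 and 3.23 without it. Cxcl10 was at 7.83 FPKM in ANG II 1 and at 4.29 to 4.74 FPKM in the other ANG II libraries, all above the control libraries. Cxcl2 was at 14.5 FPKM in ANG II 4 and at 0.438 to 0.924 FPKM in the other ANG II libraries, and its log2 fold change of 1.24 was 0.44 without that library.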

How the results depend on the processing

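Of the 24 called members, at the same thresholds, 17 kept their call under each of the 14 or 15 alternatives that could be run for them and 7 lost it under at least 1 (Ccl6, Ccl7, Ccl9, Ccr7, Cxcl5, Cxcl12 and Cxcr3). No called member changed direction. Members with a mean under 1 FPKM have no value under the filter at 1 FPKM. The direction of 3 members that were not called reversed: Ccl27a to -0.022 with median-of-ratios scaling, -0.132 with quantile normalization and -0.027 without control 4 (range over the libraries left out, -0.027 to 0.31); Ccrl2 to -0.023 with median-of-ratios scaling and -0.091 with quantile normalization; and Ccl25 to -0.011 with quantile normalization. The median of all genes was 0.15 without rescaling, 0.00 with median-of-ratios scaling and -0.04 with quantile normalization. The median log2 fold change of tested ligands was 1.21 with a pseudocount of 0.1, 1.01 with a filter at 1 FPKM and 1.34 with voom. That of receptors was 1.39 with a pseudocount of 0.1, 0.32 with no filter, 1.09 with a filter at 1 FPKM and 1.65 with voom. Apart from that with no filter, these medians hold genes that passed the filter through a single group, and they support nothing. With the adjusted p alone, 6447 of all genes were called. With an absolute log2 fold change above 1, 795 genes, 5 receptors and 16 genes of both pathway lists (32 otherwise) were called. The ligands above that threshold were Ccl4, Ccl5, Ccl7, Ccl8, Ccl12, Ccl21a, Cx3cl1, Cxcl10, Cxcl16 and Pf4. Leaving out each library in turn gave 13 to 16 ligands, 7 to 9 receptors, medians of 0.54 to 0.77 for ligands and 0.47 to 0.56 for receptors, 30 to 35 pathway genes and 2763 to 3109 genes in all.

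The replicate numbers did not pair the libraries (correlations of same-numbered deviations of -0.02, 0.06, -0.03 and -0.01). With the replicate block, 17 ligands (Ccl2 and Cxcl14 added), 9 receptors, 32 pathway genes and 2968 genes in all were called. The cause of these changes was not tested. Depth limits the 15 genes near 0, which had at most 11 fragments in a library.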
